A study of Homo sapiens with 2 samples.

Results

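Human MCF10A cells that had been growing on EGF were given an inhibitor of MEK at 15 h and compared at 20 h with cells left on EGF alone. Counts were made cell by cell by droplet single-cell RNA sequencing. Cells entered the comparison by their sample tag: each barcode in a count table was joined to its tag call, and the tag to the name of its condition. This gave 460 cells with the MEK inhibitor, 216 in library 1 and 244 in library 2, and 671 cells with EGF alone, 438 in library 1 and 233 in library 2. Together they are 1131 of the 4837 cells in the count tables. MCF10A is an immortalised line of human breast epithelium that does not form tumours and needs EGF to grow. Of the other conditions, 3 are used below: the MEK inhibitor at 30 h, the PI3K inhibitor at 20 h (also added at 15 h) and EGF alone at 30 h. EGF alone at 15 h and cells before EGF (0 h) appear as earlier points of the course. All cells but those at 0 h had EGF, and no group combined the inhibitors. The sources used here do not name the inhibitors or give their doses. A library is 1 biological replicate in which every condition was tagged, mixed with the others, fixed in methanol and frozen, so each condition has n = 2. Pairs of values below give library 1 and then library 2.

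The summed counts came to 2630877 and 3054267 UMIs (unique molecular identifiers, counted RNA molecules) with the MEK inhibitor and to 6186798 and 2757477 with EGF alone. The median cell held 12132.5 and 12274.5 UMIs with the MEK inhibitor, against 14270 and 11508 with EGF alone, and the 2 libraries shared 0 barcodes. Mitochondrial-encoded transcripts made up a median of 5.56% and 5.43% of a cell's UMIs with the MEK inhibitor and 5.09% and 5.41% with EGF alone. The libraries stood apart in cell cycle stage in both groups, with more cells called G1 in library 1. Basal keratin and p63 genes summed to 24000 and 26200 CPM (UMIs scaled to a common library total and for composition) with the MEK inhibitor and to 18600 and 22000 CPM with EGF alone. Genes of luminal cells came to 1210 and 1190 CPM with the MEK inhibitor, against 1240 and 1190 CPM with EGF alone, with ESR1 and KRT19 too low to test. Of 6 fibroblast markers 3 were listed in both tables, and they summed to 29.9 and 18.4 CPM with the MEK inhibitor and 14.3 and 9.91 CPM with EGF alone, nearly all of it DCN. The 9 of 18 markers of other cell types that both tables listed stayed at 10.5 and 2.41 CPM with the MEK inhibitor and 9.79 and 5.75 CPM with EGF alone.

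EGF binds the receptor EGFR, which switches on RAS, the kinase RAF, the kinase MEK and last the kinase ERK. Active ERK phosphorylates transcription factors, and within hours the cell makes early response factors, then phosphatases and adaptor proteins that damp the pathway, further EGF-like ligands and cyclin D1. In breast epithelium sustained ERK activity is needed to carry a cell out of G1, and MEK inhibitors are used to switch it off.

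Of 11147 genes tested, 1332 (11.9%) were called at 20 h, which here means an adjusted p under 0.05 in edgeR's quasi-likelihood test. With the MEK inhibitor 535 genes were higher (4.80%) and 797 were lower (7.15%). Every count of list members below stands beside these shares, and a count near them is not a result about its list. The sign was the same in both libraries for 1327 of the called genes. A change of at least 1 on the log2 scale was seen for 198 of the higher and 234 of the lower genes. Over all genes tested the median log2 fold change was 0.01, with quartiles of -0.25 and 0.24. Without the term that pairs the conditions of a library 92 genes were called higher and 250 lower. Scaled to library totals, without the correction for composition, the split was 409 higher and 983 lower. Calls were also recomputed with DESeq2, in cells called S phase alone and without the deepest cells of each sum; the settings that end the call of a gene named below are given at the end of a passage, and a gene too low to test under a setting has no value there. Below, a signed value in parentheses after a gene is its log2 fold change, the MEK inhibitor over EGF alone at 20 h. Counts are per gene and do not resolve exons, and the sources used here do not say whether counting used strand. Among genes named below, ANGPTL4, BTG1, CA2, CCNE2, CDK6, DNAJB4, EPHB4, ETV4, FAS, FOXC2, HMGA2, LOX, MVK, P4HA2, SLC16A3, SQSTM1 and THBS1 overlap a gene of the opposite strand, whose reads cannot be told from theirs. In summed cells, fewer cells making a transcript and less of it per cell cannot be told apart.

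**Figure D1:**
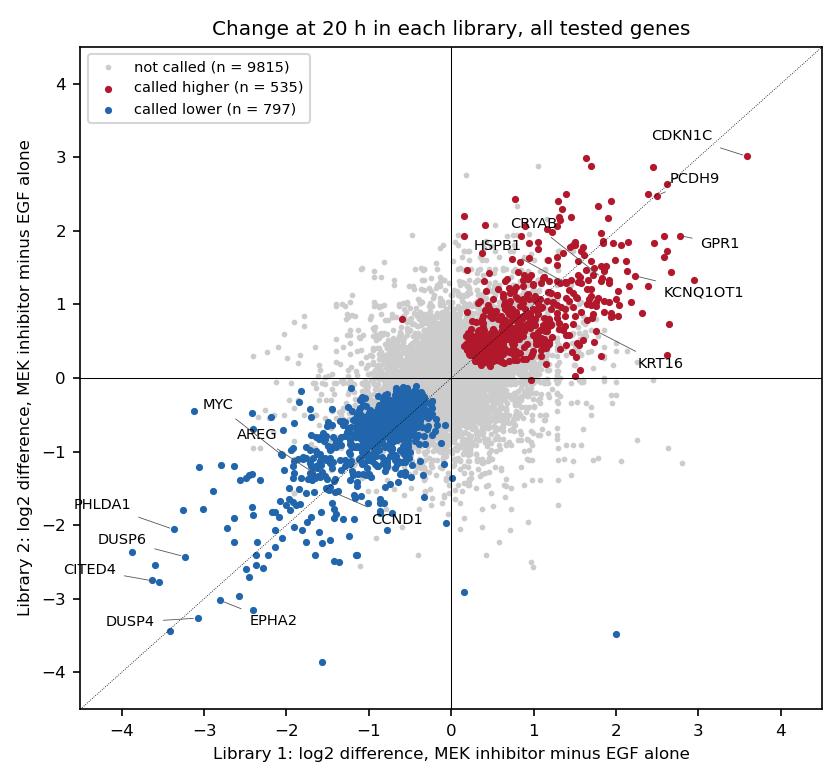
Each point is a tested gene, with the log2 difference between the MEK inhibitor and EGF alone in library 1 on the x axis and in library 2 on the y axis; red and blue mark genes called higher and lower and grey the rest. Named genes such as DUSP4 (lower left) and CDKN1C (upper right) lie near the dotted line of equal change.

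Most of the phosphatases and adaptors that ERK induces as its own brake were lower with the MEK inhibitor in both libraries. Of 15 tested members of the list of dual-specificity phosphatases, Sprouty and SPRED genes, 11 fell and 0 rose, with a median of -2.28. DUSP4, a nuclear phosphatase of ERK (chr8:29333064-29350668, GRCh38, protein-coding), stood at 5.05 and 4.53 CPM with the MEK inhibitor and at 46.5 and 48 CPM with EGF alone. Its log2 fold change was -3.32 (SE 0.21, edgeR adjusted p = 2.9e-17). DUSP6, the cytoplasmic ERK phosphatase (chr12:89347232-89353271), had 1.94 and 3.02 CPM with the inhibitor and 22.6 and 18.5 CPM with EGF alone (-3.01, SE 0.30, edgeR adjusted p = 5.9e-11). In both genes every value with the inhibitor lay several fold under every value with EGF alone. The RAS pathway adaptor SPRED1 had 1.94 and 1.81 CPM with the MEK inhibitor and 14.1 and 17.6 CPM with EGF alone (-3.06, SE 0.36). Its relative SPRED2 (-2.28), Sprouty 2 (SPRY2, -2.06) and the phosphatases DUSP5 (-2.70), DUSP2 (-2.33) and DUSP7 (-0.99) fell as well. ERRFI1, which binds EGFR itself and blocks its kinase, fell by less (-0.93). Sprouty 4 (SPRY4) was called lower on 1 and 1 UMIs with the MEK inhibitor and 32 and 8 UMIs with EGF alone, and Sprouty 1 (SPRY1) on 1 and 0 UMIs with the inhibitor and 18 and 5 UMIs with EGF alone.

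Some phosphatases of the family were not called. DUSP1, which acts mainly on the stress kinases p38 and JNK and is also an early response gene, had 276 and 491 CPM with the MEK inhibitor and 268 and 474 CPM with EGF alone (log2 fold change 0.06, SE 0.10, edgeR adjusted p = 0.79). Here the libraries differed from each other by more than the treatments did. The stress kinase phosphatases DUSP10 (-0.23), DUSP16 (0.26) and DUSP8 (1.16) were not called either, at under 5 CPM in every sum, and SPRED3 was too low to test. Leaving out the library term ended the calls of SPRED2, DUSP2 and ERRFI1. A call was also lost with DESeq2 by DUSP2 and SPRY1, in S cells by DUSP2 and ERRFI1, and without the deepest cells by DUSP2, ERRFI1 and SPRY1. Taken from 1 library alone, the fold change (given as log2) moved by over 1.5 times for SPRED2 (-1.48 in library 1, -2.21 in library 2), SPRY2 (-1.43 in library 1, -2.49 in library 2), DUSP5 (-2.90 in library 1, -1.53 in library 2) and DUSP2 (-2.04 in library 1, -1.25 in library 2). Values from 1 library carry an added count of 2 (prior count), which shrinks the fold of genes with few UMIs. In SPRED2 and DUSP2 both libraries gave a smaller fold than the joint fit. The part of the prior count in these moves was not tested.

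In single cells, thinned to 6500 UMIs each, DUSP4 was seen in 3.1% and 4.9% of cells with the MEK inhibitor and in 24.8% and 29.6% with EGF alone. For DUSP6 the shares were 1.6% and 2.2% with the inhibitor and 13.8% and 12.8% with EGF alone. PHLDA1, a nuclear protein gene of the ERK output, was seen in 2.6% and 5.4% of inhibited cells and in 25.5% and 26.5% of cells with EGF alone. The exact 95% intervals, which cover counting error only, did not overlap between treatments for these genes. DUSP4 was seen in 3.1% and 6.6% of inhibited cells called G1 and 2.6% and 4.8% of those called S, against 23.0% and 37.0% of G1 and 24.5% and 25.9% of S cells with EGF alone. Without thinning DUSP4 was seen in 5.6% and 6.1% of inhibited cells and in 41.6% and 44.6% of cells with EGF alone. All cells were labelled as 1 line, so no other cell type gave a level of stray RNA.

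**Figure D2:**
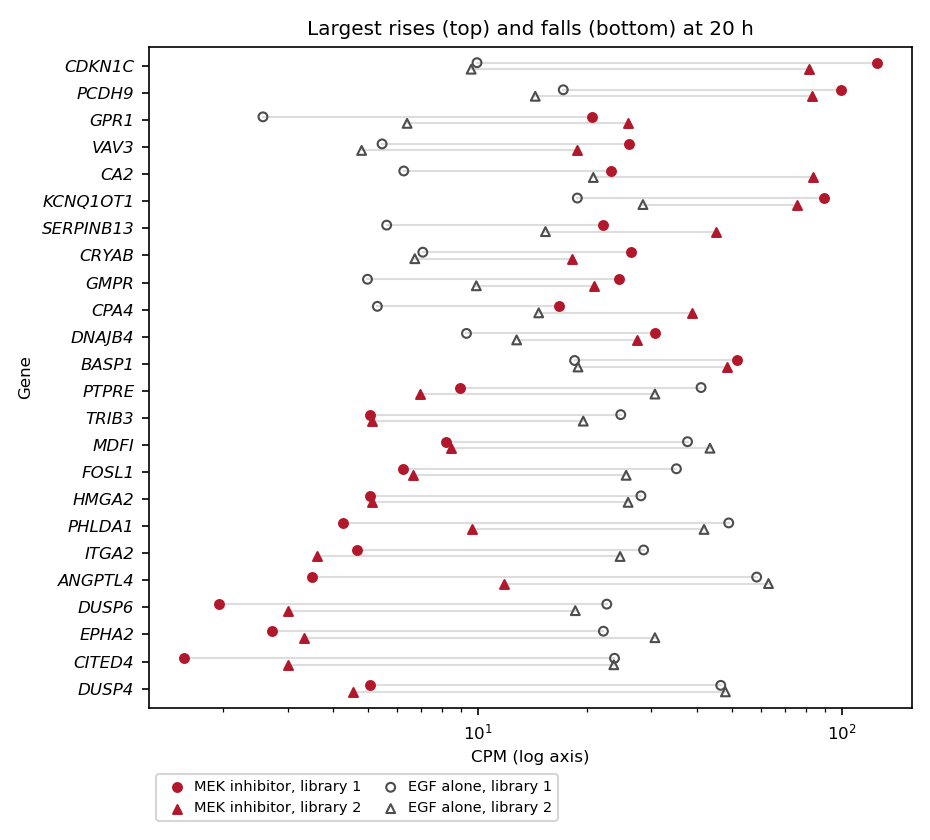
CPM on a log axis in each library for the 12 largest called rises (top) and the 12 largest called falls (bottom) among genes with at least 20 CPM in either condition; filled red symbols are the MEK inhibitor, open symbols EGF alone, circles library 1 and triangles library 2. For each of these genes both red symbols lie on the same side of both open symbols.

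Among the transcription factors that ERK induces, 14 of 28 tested members fell, 3 rose and 11 were not called (median -0.60). FOSL1, the AP-1 subunit most closely tied to lasting ERK activity, had 6.21 and 6.64 CPM with the MEK inhibitor and 35.2 and 25.6 CPM with EGF alone (-2.29, SE 0.24, edgeR adjusted p = 1.4e-10). MYC, which drives growth and biosynthesis, had 44.7 and 89 CPM with the inhibitor and 187 and 184 CPM with EGF alone (-1.48, SE 0.13, edgeR adjusted p = 1.5e-12). The inhibited libraries differed from each other while those with EGF alone were alike, and the groups did not overlap. The ETS factor ELK3 had 10.9 and 9.96 CPM with the inhibitor and 48 and 38.4 CPM with EGF alone (-2.04). The early factor EGR1 (-1.56) and the ETS factor ETV4 (-2.06) fell too, and ETV5 was at 4.27 and 2.11 CPM with the inhibitor and 5.46 and 5.75 CPM with EGF alone without being called (-0.91, edgeR adjusted p = 0.15). ETV1 had 0 UMIs with the inhibitor and 14 with EGF alone, which against a floor of 3 counts over the inhibited cells is at least 2.97-fold lower.

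JUNB (-1.05) and FOS (-0.37) fell, JUN was not called (0.43, edgeR adjusted p = 0.06), and FOSL2 and JUND rose. FOSL2 had 27.2 and 24.4 CPM with the MEK inhibitor and 10.1 and 12.5 CPM with EGF alone (1.22, SE 0.19, edgeR adjusted p = 5.3e-06). JUND had 209.7 and 373 CPM with the inhibitor and 146 and 246 CPM with EGF alone (0.58), and the library 1 value with the inhibitor lay below the library 2 value with EGF alone. The ETS factor ETS2 rose by 0.87. IER2 (-1.17) and IER3 (-0.86), short-lived early response genes, fell. Among regulators of mRNA decay 3 of 10 fell and 2 rose. ZFP36L2, which binds AU-rich mRNAs and speeds their decay, had 30.3 and 46.5 CPM with the inhibitor and 116 and 120.2 CPM with EGF alone (-1.60, SE 0.14), and its relatives ZFP36 (-0.70) and ZFP36L1 (-0.57) fell by less. The antiproliferative factors BTG1 (0.78) and BTG2 (0.69) rose. Of these genes, JUNB, FOS, JUND, ETS2, IER2, IER3, ZFP36, ZFP36L1, BTG1, BTG2 and ETV1 lost the call without the library term. Calls were also lost with DESeq2 by FOS, JUND and BTG2, in S cells by EGR1, ZFP36 and ZFP36L1, without the deepest cells by FOS and ZFP36, and with median-ratio factors by FOS. The fold moved by over 1.5 times in 1 library alone for EGR1 (-1.92 in library 1, -0.95 in library 2) and ETV4 (-1.43 in library 1, -1.90 in library 2). For ETV4 both libraries gave a smaller fold than the joint fit, and the prior count shrinks folds at few UMIs.

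Most of the tested ligands by which MCF10A cells feed their own EGF receptor were lower. Of 5 tested members of the EGF family 4 fell and 0 rose (median -1.83). Amphiregulin (AREG), the most abundant of them, had 228 and 226 CPM with the MEK inhibitor and 689.8 and 575 CPM with EGF alone (-1.49, SE 0.15, edgeR adjusted p = 3.5e-11). The inhibited libraries were nearly equal while those with EGF alone differed, and the groups did not overlap. In single cells AREG was seen in 43.8% and 60.7% of inhibited cells and 85.0% and 83.7% of cells with EGF alone, and the mean over thinned cells with a UMI was 3.0 and 2.54 UMIs with the inhibitor against 5.09 and 5.03 UMIs with EGF alone. Both the share of cells with an AREG UMI and the mean in those cells were lower. These values cannot tell fewer cells making AREG from less of it per cell. TGFA (7.38 and 4.83 CPM with the inhibitor, 23.4 and 22.4 CPM with EGF alone, -1.94), HBEGF (-2.02) and EREG (-1.83) fell as well. In HBEGF and EREG library 2 was higher than library 1 in both groups. Epigen (EPGN) had 50.1 and 50.7 CPM with the inhibitor and 57.5 and 75.1 CPM with EGF alone and was not called (-0.38, edgeR adjusted p = 0.061). Betacellulin (BTC) was under 1 CPM in every sum and was not tested.

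Of 23 tested transcripts of the cascade itself 2 were lower and 0 higher (median -0.05), beside 7.15% lower and 4.80% higher over all genes tested. The 2 were MAP2K1, which encodes MEK1 (25.6 and 26.6 CPM with the MEK inhibitor, 41.9 and 43.8 CPM with EGF alone, -0.72), and MKNK2, a kinase that ERK activates (-0.63). MAP2K2, which encodes MEK2, had 301 and 318 CPM with the inhibitor and 278 and 282 CPM with EGF alone (0.15, edgeR adjusted p = 0.34), and EGFR had 109 and 121 CPM with the inhibitor and 127 and 152 CPM with EGF alone (-0.27, edgeR adjusted p = 0.078). Some reads of MAP2K1 could come from SNAPC5, which overlaps it on the other strand. Other growth factor receptors went both ways, with 3 of 14 higher and 2 lower, beside the same shares over all genes tested. Of 10 ERK output genes 8 fell, EPHA4 rose and ETV5 was not called. The ephrin receptor EPHA2 (chr1:16124337-16156087), an ERK output gene, had 2.72 and 3.32 CPM with the inhibitor and 22.1 and 30.7 CPM with EGF alone (-3.11, SE 0.27, edgeR adjusted p = 1.0e-12). Its relative EPHA4 was called higher on 7 and 11 UMIs with the inhibitor and 3 and 0 UMIs with EGF alone. EPHB6, an ephrin receptor without kinase activity, rose (14 and 13 CPM with the inhibitor, 3.53 and 3.20 CPM with EGF alone, 1.96, SE 0.31), as did FGFR3 (0.85) and AXL (0.83), while EPHB4 (-0.94) and the HGF receptor MET (-0.54) fell. The calls of HBEGF, EREG, FGFR3, AXL, EPHB4 and MET were lost without the library term. The call was also lost with DESeq2 by AXL and EPHB4, in S cells by MAP2K1, MKNK2, FGFR3, AXL and MET, without the deepest cells by MKNK2 and MET, and with library totals by AXL.

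Among cyclins and kinases of G1, 5 of 15 tested genes fell and 0 rose (median -0.19). Cyclin D1 (CCND1, chr11:69641087-69654474), the partner of CDK4 and CDK6 that growth factors induce, had 45.8 and 59.8 CPM with the MEK inhibitor and 129 and 173 CPM with EGF alone (-1.5, SE 0.12, edgeR adjusted p = 3.9e-13). It was seen in 24.5% and 31.2% of thinned inhibited cells and 52.9% and 63.8% of cells with EGF alone. The difference was widest in cells called G1, where 22.7% and 21.1% of inhibited cells and 61.2% and 75.9% of cells with EGF alone held a CCND1 UMI; in cells called G2/M the shares were 17.6% and 34.9% with the inhibitor and 44.7% and 50.0% with EGF alone, whose intervals overlapped. MYC was seen in 27.8% and 43.4% of inhibited G1 cells and 71.9% and 74.1% of G1 cells with EGF alone, and in G2/M cells the shares were 11.8% and 34.9% with the inhibitor and 28.9% and 44.1% with EGF alone, whose intervals overlapped as well. CDK6 (60.2 and 72.4 CPM with the inhibitor, 116 and 104 CPM with EGF alone, -0.74), cyclin D2 (CCND2, -0.52), E2F3 (-0.85) and cyclin E1 (CCNE1, -0.63) made up the rest of the 5. CDK4, RB1 and CDC25A were not called, and cyclin E2 (CCNE2) had 26.8 and 41.4 CPM with the inhibitor and 30.2 and 42.8 CPM with EGF alone (-0.07, edgeR adjusted p = 0.86).

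Of 6 tested CDK inhibitors 3 rose and 0 fell (median 0.53). CDKN1C, which encodes p57 and holds back CDKs in G1 (chr11:2883213-2885773), had 125 and 81.2 CPM with the MEK inhibitor and 9.95 and 9.59 CPM with EGF alone (3.4, SE 0.18, edgeR adjusted p = 6.1e-21). CDKN2C, which encodes the CDK4 and CDK6 inhibitor p18, had 26.4 and 27.5 CPM with the inhibitor and 11.1 and 14.1 CPM with EGF alone (1.10), and CDKN1A, which encodes p21, had 53.2 and 50.7 CPM with the inhibitor and 33.9 and 33.9 CPM with EGF alone (0.62). CDKN1B, which encodes p27, was level at 10.1 and 12.1 CPM with the inhibitor and 10.3 and 12.8 CPM with EGF alone (0.01, edgeR adjusted p = 0.98). CDKN1C was seen in 39.6% and 33.5% of thinned inhibited cells and in 6.2% and 5.6% of cells with EGF alone. Among inhibited cells the share was 48.5% and 39.5% in those called G1, 29.5% and 31.4% in S and 35.3% and 27.9% in G2/M, so it was met at every stage of the cycle. With EGF alone it was 7.3% and 5.6% in G1, 6.4% and 4.6% in S and 0.0% and 8.8% in G2/M, where the 0 of 38 cells of library 1 allows a share of up to 9.3% (exact 95% bound).

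CDKN1C lies in the imprinted domain of 11p15.5, a stretch of genes whose parental copies differ in activity, and its neighbours differed in direction. KCNQ1OT1, the long antisense RNA of the domain (chr11:2608328-2699994), rose, with 89.7 and 75.5 CPM with the MEK inhibitor and 18.8 and 28.4 CPM with EGF alone (1.88, SE 0.16, edgeR adjusted p = 4.3e-13). PHLDA2, an imprinted gene that restrains placental growth (chr11:2928273-2929455), fell, with 198 and 194 CPM with the inhibitor and 503 and 462 CPM with EGF alone (-1.30, SE 0.10, edgeR adjusted p = 1.3e-14). KCNQ1, the channel gene that KCNQ1OT1 overlaps and whose reads cannot be told from it here, had 3 and 4 UMIs with the inhibitor and 1 and 0 UMIs with EGF alone. The remaining 5 tested genes of the stretch were not called. Among them NAP1L4 (0.10), TSSC4 (-0.10), CARS (-0.10) and CD81 (0.07) changed by no more than 0.10 on the log2 scale, and SLC22A18 (0.17) was at under 5 CPM. In single cells KCNQ1OT1 was seen in 43.8% and 37.5% of inhibited cells and 13.1% and 19.9% of cells with EGF alone, and with the inhibitor it was more frequent in G1 (54.6% and 53.9%) than in G2/M (17.6% and 20.9%). Leaving out the library term ended the calls of CCND2, E2F3, CCNE1 and CDKN1A. A call was also lost with DESeq2 by E2F3 and CCNE1, in S cells by CCND2, E2F3 and CCNE1, without the deepest cells by CCND2, E2F3, CCNE1 and CDKN2C, with median-ratio factors by CCNE1, and without 0 h and 15 h by CCNE1.

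**Figure D3:**
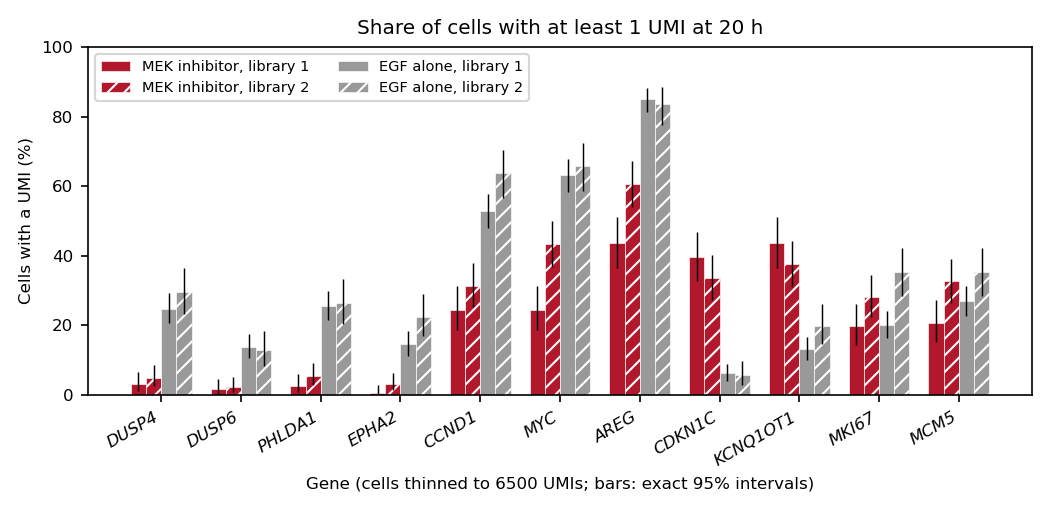
Share of cells with at least 1 UMI of each gene after thinning to 6500 UMIs per cell; red bars are the MEK inhibitor, grey bars EGF alone, hatched bars library 2, and error bars exact 95% binomial intervals. The shares of DUSP4, DUSP6, PHLDA1, EPHA2, CCND1, MYC and AREG are lower with the inhibitor in both libraries and those of CDKN1C and KCNQ1OT1 higher, while the intervals of MKI67 and MCM5 overlap within each library.

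Few genes of DNA replication were called at 20 h. Of 40 tested replication genes 1 rose and 0 fell, with a median of -0.01, beside 11.9% called over all genes tested. The sliding clamp PCNA had 452 and 472 CPM with the MEK inhibitor and 407 and 422 CPM with EGF alone (0.16, edgeR adjusted p = 0.38). The ribonucleotide reductase subunit RRM2 had 94.4 and 132 CPM with the inhibitor and 102 and 126 CPM with EGF alone (-0.03, edgeR adjusted p = 0.92). The 1 that rose was thymidine kinase (TK1, 0.49). Of 30 genes of G2 and mitosis 4 rose and 1 fell (median 0.11), beside 4.80% higher and 7.15% lower over all genes tested. HMMR, a hyaluronan receptor that also binds the spindle, had 55.1 and 64 CPM with the inhibitor and 24.1 and 37.1 CPM with EGF alone (0.96, SE 0.16), and cyclin B2 (CCNB2, 0.57), NUSAP1 (0.53) and securin (PTTG1, 0.48) rose as well. CDC25B, a phosphatase that activates CDK1 at the start of mitosis, fell (15.54 and 15.4 CPM with the inhibitor, 29.5 and 35.8 CPM with EGF alone, -1.10). CDK1 (0.09, edgeR adjusted p = 0.76) and CCNB1 (-0.17, edgeR adjusted p = 0.52) were not called.

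By transcript, 50.5% and 33.9% of cells with the MEK inhibitor were called G1, against 42.4% and 27.6% with EGF alone. The S calls were 40.6% and 46.9% with the inhibitor and 48.6% and 55.1% with EGF alone, and the G2/M calls 8.9% and 19.2% with the inhibitor and 9.0% and 17.3% with EGF alone. Calls used the lists of 40 replication and 30 mitosis genes on cells thinned to 6500 UMIs, and 99 of the 1131 cells were too shallow to call. Between 12.1% and 26.0% of the called cells of a group lay within 0.05 score units of a boundary. With 2 libraries no test of these shares was made, and free RNA can enter such calls. Restricted to cells called S, 298 genes were higher and 341 lower, of which 219 and 324 were also called in all cells. Of these genes, TK1, HMMR, CCNB2, NUSAP1 and PTTG1 lost the call without the library term. Calls were also lost with DESeq2 by TK1 and CCNB2, in S cells by CCNB2 and NUSAP1, without the deepest cells by TK1, CCNB2, NUSAP1 and PTTG1, and with library totals by TK1 and CCNB2. All of these genes belong to the lists used for the phase calls, so their values in S cells are no separate check.

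Most of the tested genes for building ribosomes were lower. Of 26 tested ribosome biogenesis genes 17 fell and 0 rose (median -0.48). The pre-rRNA processing factor RRP9 had 31.1 and 38.3 CPM with the MEK inhibitor and 69.7 and 64.3 CPM with EGF alone (-0.94, SE 0.13, edgeR adjusted p = 4.1e-07). RRS1, which brings ribosomal proteins into the large subunit, had 35.7 and 32.6 CPM with the inhibitor and 71.4 and 59.1 CPM with EGF alone (-0.95, SE 0.14). In both genes the 2 groups were apart in each library. RRP12 (-0.89), POLR1B, a subunit of RNA polymerase I (-0.84), WDR43 (-0.74), NOP16 (-0.71) and nucleolin (NCL, -0.34) were also lower, whereas 9 tested members were not called. Of 24 genes for making nucleotides and polyamines 9 fell and 0 rose (median -0.24). PPAT, which commits ribose to purines, had 23.3 and 21.4 CPM with the inhibitor and 38.9 and 44.4 CPM with EGF alone (-0.88, SE 0.17, edgeR adjusted p = 1.6e-04). The pyrimidine enzymes DHODH (-0.70) and CTPS1 (-0.63), ornithine decarboxylase (ODC1, -0.67) and spermidine synthase (SRM, -0.30) fell by less than 1 on the log2 scale.

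Many genes of these 2 lists are known targets of MYC, which binds the letters CACGTG (an E-box), and 3 of the 8 nucleotide and polyamine genes that fell and have a promoter in the table carry them. They are shown with up to 30 bases either side, none past the start, with the E-box in capitals and each read 5′ to 3′ on the gene's strand in RefSeq promoters of GRCh38.p14:
PPAT (chr4:56435762-56435827, minus strand): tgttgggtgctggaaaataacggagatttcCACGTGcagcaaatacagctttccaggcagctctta
DHODH (chr16:72008555-72008620, plus strand): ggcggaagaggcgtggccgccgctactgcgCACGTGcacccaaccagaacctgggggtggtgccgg
SRM (chr1:11060182-11060247, minus strand): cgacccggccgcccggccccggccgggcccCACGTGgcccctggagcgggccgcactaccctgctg
The E-box starts 182 bases before the start of PPAT, 159 before that of DHODH and 199 before that of SRM. In promoters taken as 250 bases before to 50 after the start, the letters occurred in 99 of 617 genes called lower (16%), in 25 of 411 called higher (6.08%) and in 918 of the 8727 tested genes with a promoter in the table (10.5%). Over all 27305 promoters of the table the share was 7.43%. They were in 9 of 21 tested ribosome biogenesis genes, and in 4 of the 13 of them that fell. Of the nucleotide and polyamine genes, 6 of 20 tested carried the E-box letters, beside 3 of the 8 that fell. A second motif, the cAMP response element TGACGTCA, was found ahead of 2 of the lowered ERK output genes and ligands, with the element in capitals:
EPHA2 (chr1:16156083-16156150, minus strand): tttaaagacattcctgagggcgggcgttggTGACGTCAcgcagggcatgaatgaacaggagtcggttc
AREG (chr4:74445041-74445108, plus strand): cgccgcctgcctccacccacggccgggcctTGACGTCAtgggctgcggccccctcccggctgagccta
It was in 27 of the 617 lower genes (4.38%), in 10 of the 411 higher genes (2.43%), in 306 of the 8727 tested (3.51%) and in 540 of all promoters (1.98%). Of the lowered ERK output genes with a promoter in the table, 1 of 5 held it. In the feedback list it was in 2 of 13 tested genes and in 0 of the 9 that fell. The ETS letters CCGGAAG were in 19% of lower, 8.76% of higher and 21.2% of tested genes and in 10.7% of all promoters. The AP-1 letters TGANTCA were in 6.32% of lower, 6.81% of higher and 4.45% of tested genes and in 7.76% of all promoters. The ETS letters and the AP-1 letters were each in 0 of the 5 lowered ERK output genes and 0 of the 9 lowered feedback genes. Motifs were searched on both strands; the E-box and the response element are each their own reverse complement. A match is a run of letters and not a measured site. Promoters of CCND1, CDKN1C, FOSL1 and KCNQ1OT1 were not used here. The calls of RRP12, POLR1B, NCL, DHODH, CTPS1, ODC1 and SRM were lost without the library term. The call was also lost with DESeq2 by DHODH, in S cells by RRP12, POLR1B, NCL, DHODH and SRM, and without the deepest cells by RRP12, POLR1B, DHODH and SRM.

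The metabolic lists each held calls in both directions, beside 11.9% called over all genes tested. Of 18 cholesterol genes 1 rose and 1 fell (median 0.15). Mevalonate kinase (MVK) had 21.4 and 29.6 CPM with the MEK inhibitor and 9.47 and 16.6 CPM with EGF alone (1.01). Of 11 genes of fatty acid synthesis 1 rose (ACSL3, 0.35) and 1 fell (ACSL4, -0.87), both enzymes that activate fatty acids. Of 20 glycolysis genes 1 rose, the glucose transporter SLC2A1 (0.47), and 3 fell, among them the lactate exporter SLC16A3 (72.6 and 89.3 CPM with the inhibitor, 104 and 144 CPM with EGF alone, -0.60) and phosphofructokinase (PFKP, -0.34). GAPDH had 3627 and 3084 CPM with the inhibitor and 3462 and 2813 CPM with EGF alone (0.10, edgeR adjusted p = 0.52). Among 20 genes of amino acid supply 3 rose and 4 fell. The pseudokinase TRIB3 fell most (5.05 and 5.13 CPM with the inhibitor, 24.7 and 19.5 CPM with EGF alone, -2.21, SE 0.27), the amino acid carriers SLC38A1 (-0.65) and SLC38A2 (-0.32) and the factor CEBPB (-0.52) fell by less, and the carrier chain SLC3A2 (0.39), the mTORC1 inhibitor DDIT4 (0.44) and the serine enzyme PSPH (0.73) rose. Of 10 genes that hypoxia induces in other settings 2 rose and 2 fell: ANGPTL4, a secreted inhibitor of lipoprotein lipase, had 3.50 and 11.8 CPM with the inhibitor and 58.4 and 63 CPM with EGF alone (-2.99, SE 0.21), NDRG1 fell (-0.71), and adrenomedullin (ADM, 1.30) and the collagen hydroxylase P4HA2 (0.51) rose. Leaving out the library term ended the calls of MVK, ACSL3, SLC2A1, SLC16A3, PFKP, SLC38A2, CEBPB, SLC3A2, DDIT4, PSPH, ADM and P4HA2. A call was also lost with DESeq2 by ACSL3, SLC2A1, PFKP, SLC38A2, PSPH and P4HA2, in S cells by MVK, ACSL3, PFKP, SLC38A2, PSPH and P4HA2, without the deepest cells by ACSL3, ACSL4, PFKP, SLC38A2 and P4HA2, and with library totals by ACSL3 and P4HA2. Taken from 1 library alone, the fold change (given as log2) moved by over 1.5 times for ANGPTL4 (-3.88 in library 1, -2.37 in library 2).

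Several genes for adhesion to the basement membrane and for clearing a path through it were lower. Of 18 integrin and hemidesmosome genes 9 fell and 1 rose (median -0.37). ITGA2, the collagen-binding integrin chain (chr5:52989326-53094779), had 4.66 and 3.62 CPM with the MEK inhibitor and 28.6 and 24.6 CPM with EGF alone (-2.71, SE 0.25, edgeR adjusted p = 5.9e-12). The laminin chains LAMB3 (69.5 and 77.9 CPM with the inhibitor, 140.1 and 125 CPM with EGF alone, -0.87) and LAMA3 (-0.54), which anchor basal cells, fell. Their receptor chains ITGA3 (-0.58), ITGA6 (-0.45) and ITGB4 (-0.39) fell as well, and the linker DST rose (0.36). Of 17 genes of pericellular proteolysis and migration 8 fell and 1 rose (median -0.32). Tissue factor (F3) had 36.5 and 53.7 CPM with the inhibitor and 105 and 154 CPM with EGF alone (-1.55, SE 0.13, edgeR adjusted p = 7.9e-13). The urokinase receptor PLAUR (12.4 and 15.7 CPM with the inhibitor and 40.0 and 31.6 CPM with EGF alone, -1.38) and its ligand PLAU (-2.94, on 1 and 4 UMIs with the inhibitor and 26 and 30 UMIs with EGF alone) fell together with thrombospondin 1 (THBS1, -1.87), the chromatin protein HMGA2 (-2.36) and the surface nucleotidase NT5E (-0.84). TIMP3, an inhibitor of matrix proteases, rose (0.37). Of 11 matrix genes 1 rose and 0 fell, beside 11.9% called over all genes tested.

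Of 13 tested chemokine and cytokine genes 4 fell and 0 rose (median -0.48). CXCL1 had 3.11 and 4.53 CPM with the MEK inhibitor and 7.71 and 18.5 CPM with EGF alone (-1.78), and CXCL3 8.16 and 9.36 CPM with the inhibitor and 14.6 and 27.2 CPM with EGF alone (-1.30); library 2 was the higher one in both groups, and reads may be shared between these near relatives. CSF3, which encodes the growth factor G-CSF, was at 1 and 2 UMIs with the inhibitor and 67 and 22 UMIs with EGF alone. No gene of the interferon list (0 of 16 tested) or of the MHC class I list (0 of 9) was called by edgeR or by DESeq2. At an unadjusted p under 0.05 edgeR had 3 interferon genes and 0 MHC genes. Over all genes tested edgeR called 11.9%. In the Notch, BMP and TGF-beta list 3 of 15 fell and 1 rose. The Notch ligand JAG1 had 3.50 and 6.64 CPM with the inhibitor and 21 and 23.7 CPM with EGF alone (-2.10, SE 0.25). ID1, a dominant-negative partner of helix-loop-helix factors, had 74.2 and 87.5 CPM with the inhibitor and 174 and 192 CPM with EGF alone (-1.16, SE 0.12), while its relative ID3 rose (369.7 and 441 CPM with the inhibitor, 196 and 321 CPM with EGF alone, 0.68). The TGF-beta inhibitor PMEPA1 fell (-1.01). Of 15 YAP targets 4 rose, among them the stress gene GADD45B (0.87) and AJUBA (0.56), and 3 fell, F3, NT5E and FJX1 (-0.61); CYR61 and CTGF, the best known of them, were not called. Of these genes, LAMA3, ITGA6, ITGB4, DST, TIMP3, CXCL1, CXCL3, ID3, GADD45B, AJUBA and FJX1 lost the call without the library term. Calls were also lost with DESeq2 by LAMA3, CXCL3 and AJUBA, in S cells by LAMA3, ITGA3, ITGB4, GADD45B and AJUBA, and without the deepest cells by LAMA3, ITGA6, ITGB4, PLAU, GADD45B, AJUBA and FJX1. The fold moved by over 1.5 times in 1 library alone for THBS1 (-2.46 in library 1, -1.32 in library 2) and CXCL1 (-1.18 in library 1, -1.92 in library 2).

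Among genes of cell survival, 6 of 14 tested BCL2 family genes fell and 1 rose (median -0.46). The falls held both kinds of member. BCL2L1, which encodes the protective BCL-XL, had 13.2 and 12.7 CPM with the MEK inhibitor and 29.9 and 34.5 CPM with EGF alone (-1.31, SE 0.20), and the protective MCL1 53.6 and 86.3 CPM with the inhibitor and 113 and 129 CPM with EGF alone (-0.78, SE 0.12). The death-promoting PMAIP1 (-0.67), BOK (-0.64), BID and HRK fell too, and the death-promoting BIK rose (12 and 8.75 CPM with the inhibitor, 4.66 and 3.20 CPM with EGF alone, 1.36). BCL2L11, which encodes BIM, was not called (0.28, edgeR adjusted p = 0.59). Of 18 p53 targets 4 rose and 3 fell: the stress cytokine GDF15 rose most (15.2 and 16 CPM with the inhibitor, 5.78 and 3.20 CPM with EGF alone, 1.77, SE 0.28) and the kinase PLK3 fell most (1.17 and 4.83 CPM with the inhibitor and 10.6 and 21.4 CPM with EGF alone, -2.33), with SESN1 (1.10), FDXR (0.77) and PHLDA3 (0.48) among the rises and AEN (-1.01) and FAS (-0.73) among the falls. Of 16 genes that FOXO factors induce or that sense PI3K 5 rose and 1 fell (median 0.40). PDK4, a brake on pyruvate oxidation, had 43.5 and 43.5 CPM with the inhibitor and 14.9 and 35.5 CPM with EGF alone (0.94), CITED2, a coactivator partner, had 58.3 and 39.2 CPM with the inhibitor and 25.4 and 28.4 CPM with EGF alone (0.83), and GADD45A (0.77), SESN1 and FOXO3 (0.56) rose; the insulin receptor substrate IRS2 fell (-1.0). The calls of PMAIP1, BOK, BID, HRK, BIK, PLK3, FDXR, PHLDA3, AEN, FAS, PDK4, FOXO3 and IRS2 were lost without the library term. The call was also lost with DESeq2 by PMAIP1, BOK, BID, HRK, PDK4 and FOXO3, in S cells by PMAIP1, BOK, BID, BIK, GDF15, AEN and FOXO3, without the deepest cells by BID, HRK, FAS and FOXO3, with library totals by FOXO3, and with no filter on low counts by BID and FOXO3. In 1 library alone the fold lay over 1.5 times from the joint one for PDK4 (1.51 in library 1, 0.29 in library 2).

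Of 12 basal genes 4 rose and 0 fell (median 0.28). KRT16, a keratin of stressed and healing epidermis, had 362 and 259 CPM with the MEK inhibitor and 107 and 166 CPM with EGF alone (1.23, SE 0.17, edgeR adjusted p = 5.2e-07). KRT14, the main basal keratin here, had 11630 and 10190 CPM with the inhibitor and 8487 and 8396 CPM with EGF alone (0.37). KRT5 (0.24, edgeR adjusted p = 0.095), KRT17 (0.33, edgeR adjusted p = 0.064) and TP63 (0.41) were not called, and counts can be shared between KRT14, KRT16 and KRT17, which are close in sequence. The desmosome cadherin DSG3 (0.40) and the junction gene PERP (0.33) rose. Of 9 tested luminal genes CD24, a surface glycoprotein, rose (103 and 157 CPM with the inhibitor, 39.2 and 73.5 CPM with EGF alone, 1.23, SE 0.16) and KRT18 fell (254 and 242 CPM with the inhibitor and 425 and 372 CPM with EGF alone, -0.69), while its pairing partner KRT8, which overlaps it on the map, was not called (0.50, edgeR adjusted p = 0.06). Among 17 genes of squamous differentiation and alarm 5 fell and 2 rose. The alarm proteins S100A8 (12.8 and 7.24 CPM with the inhibitor, 52.8 and 25.3 CPM with EGF alone, -2.0, SE 0.24) and S100A9 (-1.58) fell in both libraries. SPRR2D was called lower (-0.80) although its difference lay in library 2, with 17.5 and 18.4 CPM with the inhibitor and 17.3 and 48 CPM with EGF alone, and its log2 fold change was 0.04 in S cells; it belongs to a family of near-identical genes. KRT1 had 0 UMIs with the inhibitor and 15 with EGF alone, at least 3.18-fold lower.

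Among 13 tested markers of epithelial and mesenchymal state 4 rose and 1 fell, beside 4.80% higher and 7.15% lower over all genes tested. The mesenchymal factors differed: TWIST1 rose (0.48) and SNAI2 fell (-0.60), while the desmosome protein DSP rose (0.42). Of 23 lysosome and autophagy genes 4 rose and 0 fell (median 0.14), among them the lysosomal regulators MITF (9.32 and 9.36 CPM with the inhibitor, 2.09 and 3.52 CPM with EGF alone, 1.76) and TFEB (1.05), the autophagy receptor SQSTM1 (0.48) and LAMP2 (0.44). Of 13 heat shock genes 2 rose and 3 fell, beside the same shares over all genes tested. The small heat shock proteins HSPB1 (446 and 534 CPM with the inhibitor, 170.2 and 218 CPM with EGF alone, 1.34, SE 0.14, edgeR adjusted p = 4.3e-10) and CRYAB (26.4 and 18.1 CPM with the inhibitor and 7.06 and 6.71 CPM with EGF alone, 1.75, SE 0.22) rose, and BAG3, their partner in clearing damaged proteins, fell (13.2 and 12.7 CPM with the inhibitor, 31.8 and 26.5 CPM with EGF alone, -1.21), as did the chaperones HSPA8 (-0.45) and HSPH1 (-0.31). Of 13 mitochondrial-encoded transcripts edgeR called 0, with 0 at an unadjusted p under 0.05, and DESeq2 called 1. The fibroblast marker DCN, a secreted proteoglycan, was called higher, at 28 and 16.3 CPM with the inhibitor and 14.1 and 8.63 CPM with EGF alone (1.01, edgeR adjusted p = 7.2e-04), and COL1A1 had 4 and 7 UMIs with the inhibitor and 1 and 4 UMIs with EGF alone without being called; whether other cells were present was not tested. Leaving out the library term ended the calls of KRT16, KRT14, DSP, DSG3, PERP, CD24, KRT18, SPRR2D, KRT1, TWIST1, SNAI2, TFEB, SQSTM1, LAMP2, HSPA8, HSPH1 and DCN. A call was also lost with DESeq2 by DSG3, PERP, S100A9, SPRR2D, SNAI2 and LAMP2, in S cells by TWIST1, SNAI2, TFEB, LAMP2, HSPH1 and DCN, without the deepest cells by DSG3, S100A9, SPRR2D, TWIST1, SNAI2 and HSPH1, and with library totals by DSG3 and LAMP2. Taken from 1 library alone, the fold change (given as log2) moved by over 1.5 times for KRT16 (1.76 in library 1, 0.64 in library 2).

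**Figure D4:**
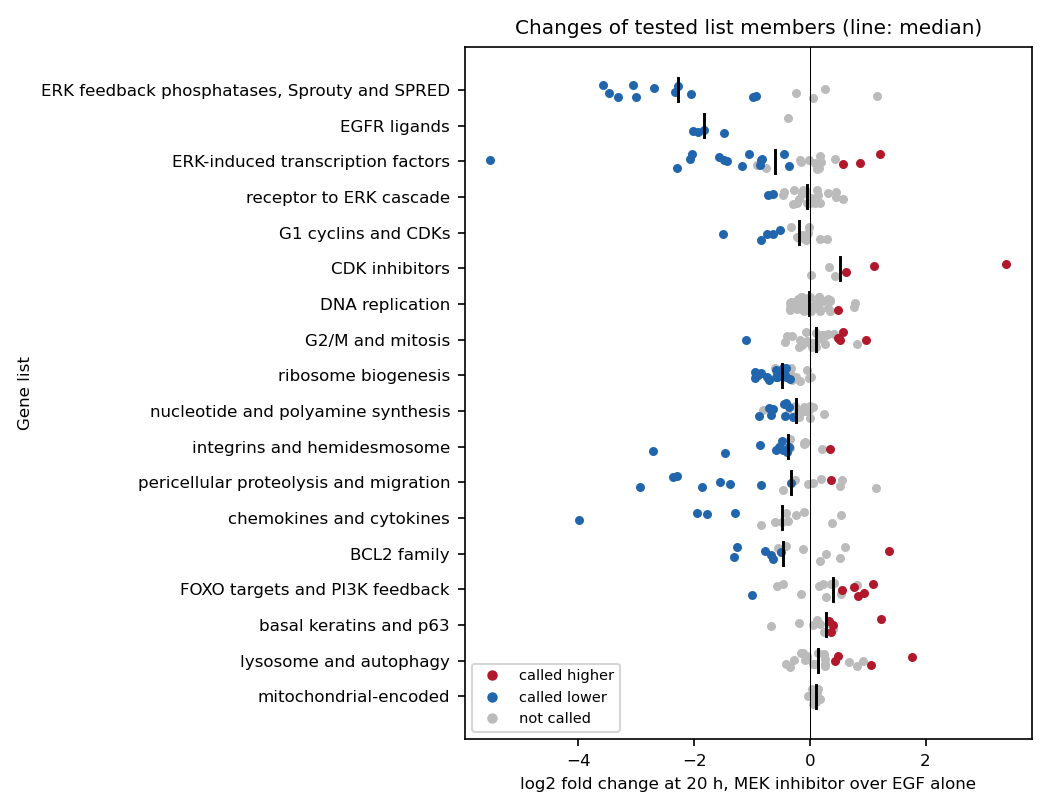
Log2 fold change at 20 h (MEK inhibitor over EGF alone, x axis) of each tested member of 18 gene lists (y axis), red for called higher, blue for called lower, grey for not called, with a black line at the list median. Among these lists, which leave out the ERK output genes (median -2.34), feedback genes and EGFR ligands lie furthest to the left, at medians of -2.28 and -1.83, while replication and mitochondrial-encoded genes centre on -0.01 and 0.10.

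Several of the largest changes were in genes outside these lists. CITED4, a partner of the coactivator CBP (chr1:40861051-40862366), had 1.55 and 3.02 CPM with the MEK inhibitor and 23.8 and 23.7 CPM with EGF alone (-3.28, SE 0.31, edgeR adjusted p = 9.1e-12). MDFI, which holds back myogenic and other transcription factors, had 8.16 and 8.45 CPM with the inhibitor and 37.7 and 43.5 CPM with EGF alone (-2.29, SE 0.23), and the receptor tyrosine phosphatase PTPRE 8.93 and 6.94 CPM with the inhibitor and 41.1 and 30.7 CPM with EGF alone (-2.17, SE 0.20). PHLDA1 (chr12:76025447-76033932), which is in the ERK output list, had 4.27 and 9.66 CPM with the inhibitor and 49 and 41.9 CPM with EGF alone (-2.61, SE 0.22). On the other side PCDH9, a protocadherin of cell contacts (chr13:66302834-67230445), had 99.4 and 82.7 CPM with the inhibitor and 17.2 and 14.4 CPM with EGF alone (2.54, SE 0.14, edgeR adjusted p = 1.7e-19). GPR1, a chemerin receptor, had 20.6 and 26 CPM with the inhibitor and 2.57 and 6.39 CPM with EGF alone (2.51), and VAV3, an exchange factor that activates RAC, 26 and 18.7 CPM with the inhibitor and 5.46 and 4.79 CPM with EGF alone (2.10). Carbonic anhydrase 2 (CA2) had 23.3 and 83.3 CPM with the inhibitor and 6.26 and 20.8 CPM with EGF alone (2.02), with library 2 several fold above library 1 in both groups. The serpin SERPINB13 (1.82), the purine enzyme GMPR (1.74), the carboxypeptidase CPA4 (1.60), the chaperone partner DNAJB4 (1.43) and the membrane protein BASP1 (1.43) completed the 12 largest rises. Of these genes, CA2 and CPA4 lost the call without the library term. The fold moved by over 1.5 times in 1 library alone for PHLDA1 (-3.37 in library 1, -2.06 in library 2) and GMPR (2.18 in library 1, 1.03 in library 2).

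Whether the change grew or shrank by 30 h was tested as the difference between the inhibitor's change at 30 h and at 20 h. It was called for 622 genes (5.58%), positive in 325 (2.92%) and negative in 297 (2.66%), and for 36 without the library term. For the feedback genes DUSP6 and DUSP4 no difference was called: the log2 fold change of DUSP6 was -3.32 at 30 h against -3.01 at 20 h (difference -0.31, SE 0.49, edgeR adjusted p = 0.82), and that of DUSP4 -3.12 against -3.32 (adjusted p = 0.82). CCND1 stood at -1.95 at 30 h and -1.5 at 20 h (adjusted p = 0.15, but called at -0.57 with library totals, adjusted p = 0.048) and MYC at -1.08 and -1.48 (adjusted p = 0.2). CDKN1C stood further up at 30 h, by 1.15 (SE 0.28, edgeR adjusted p = 0.007), with 184 and 207 CPM with the inhibitor and 10.8 and 6.76 CPM with EGF alone. Some genes called higher at 20 h, picked after their values were seen, stood further up at 30 h: HSPB1 by a further 1.97, CRYAB by 2.65, KRT16 by 2.30 and CD24 by 1.88. KRT16 had 1006 and 1028 CPM with the inhibitor and 74.1 and 102 CPM with EGF alone at 30 h. The difference for NT5E, lower at both times, was -1.82. ID1 went the other way: it was lower at 20 h (-1.16) and had 209 and 252 CPM with the inhibitor and 188 and 205 CPM with EGF alone at 30 h (0.24), a difference of 1.41 (SE 0.16, edgeR adjusted p = 1.5e-08). Of the 168 called genes chosen for naming at 20 h the difference was called for 39, and in 28 of these the change was larger at 30 h. The difference uses the same 20 h sums by which the genes were named. It was lost without the library term for CDKN1C, HSPB1 and CD24, and for CDKN1C also without the cells with most UMIs (1.02, adjusted p = 0.11).

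**Figure D5:**
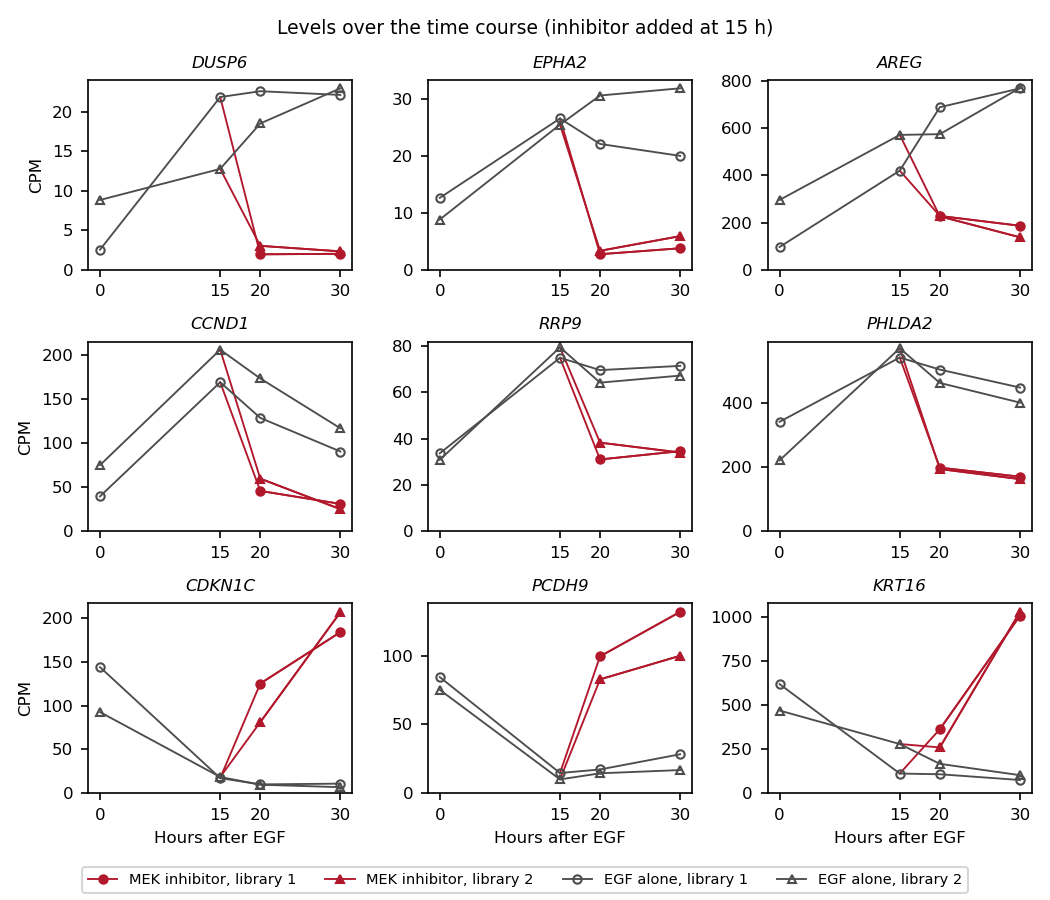
CPM (y axis, from 0) against hours after EGF (x axis) for 9 genes; open symbols and grey lines are EGF alone, filled red symbols the MEK inhibitor, circles library 1 and triangles library 2, and each red line starts at the EGF level at 15 h, when the inhibitor was added. DUSP6 and PHLDA2 are already low at 20 h and stay there at 30 h, whereas KRT16 and CDKN1C are higher at 30 h than at 20 h.

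Some genes had moved at 30 h without being called at 20 h. MCM10, which helps to start replication forks, had 25.2 and 31.1 CPM with the MEK inhibitor and 29.5 and 34.9 CPM with EGF alone at 20 h, and 4.02 and 3.48 CPM with the inhibitor and 14 and 17.6 CPM with EGF alone at 30 h (difference -1.95, SE 0.29, edgeR adjusted p = 3.4e-06). CCNE2 likewise differed by -1.91 (SE 0.40). At 30 h 1.6% and 0.4% of inhibited cells were called S and 18.4% and 11.7% of cells with EGF alone, and the part of this in these 2 genes was not tested. KRT15, a basal keratin, had 14.8 and 21.7 CPM with the inhibitor and 12 and 35.2 CPM with EGF alone at 20 h, but 177 and 164 CPM with the inhibitor and 29.8 and 30.4 CPM with EGF alone at 30 h (difference 2.71, SE 0.30). Its change at 20 h was -0.19 and not called (edgeR adjusted p = 0.7), but it was 1.05 without the deepest cells (adjusted p = 0.06) and 1.19 in S cells (adjusted p = 0.057). The calcium pump ATP2B4 (2.90), the collagen cross-linking enzyme LOX (2.91) and the noncoding RNA IGFL2-AS1 (2.67) had the largest positive differences beside it, and the peroxisomal oxidase ACOX2 (-2.92) and PLEK2 (-2.0) the largest negative ones. Leaving out the library term ended the calls of the difference for ACOX2, CCNE2, LOX and IGFL2-AS1.

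Set directly against the PI3K inhibitor at 20 h, 2410 genes (21.6%) were called, 1248 higher with the MEK inhibitor (11.2%) and 1162 lower (10.4%), and 999 without the library term. The feedback gene DUSP6 was lower with the MEK inhibitor, at 1.94 and 3.02 CPM, than with the PI3K inhibitor, at 27 and 22.8 CPM (-3.28, SE 0.31, edgeR adjusted p = 3.9e-12). AREG (-1.44), MYC (-1.70), EPHA2 (-3.23) and PHLDA1 (-3.28) were lower with the MEK inhibitor as well. For CCND1 the inhibitors did not differ detectably, with 45.8 and 59.8 CPM with the MEK inhibitor and 54 and 57.4 CPM with the PI3K inhibitor (-0.09, SE 0.15, edgeR adjusted p = 0.72). F3 was likewise not called (0.00, SE 0.16, edgeR adjusted p = 1). CDKN1C was higher with the MEK inhibitor, at 125 and 81.2 CPM, than with the PI3K inhibitor, at 30.4 and 29.2 CPM (1.79, SE 0.16, edgeR adjusted p = 6.4e-13). GPR1 (3.35), CA2 (3.36), SERPINB13 (3.29) and GMPR (3.25) had the largest positive differences under the naming rule. The largest negative ones were the adaptor GRB7, at 1.17 and 0 CPM with the MEK inhibitor and 19.1 and 22.8 CPM with the PI3K inhibitor (-5.34, SE 0.53), FAM110C (-4.62), the forkhead factor FOXC2 (-4.52) and the cell cycle regulator RGCC (-4.02). Against EGF alone at 20 h, 5 of 15 tested feedback genes were higher with the PI3K inhibitor and 0 lower. Over all 11147 genes tested, 1275 were higher with it. A difference between the inhibitors therefore does not say which of them moved a gene. The changes of both inhibitors are measured from the same EGF cells, and the sources used here do not say whether their doses match.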

How the data were processed

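The authors deposited whole-number UMI counts per gene and cell, 1 table per library, with tag calls and the condition of each tag; per the submitters' processing notes Cell Ranger 3.0.2, Seurat and build GRCh38 were used. The sources used here do not give the tag rule, annotation release, strand setting or cell filter. Tag calls listed 4848 of 8641 barcodes (56.1%) and 2478 of 6161 (40.2%) as doublets; every cell in the count tables had a condition, and no doublet caller was run. The 16387 genes in both tables were used.

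Counts were summed over cells per library and condition, and all 16 sums were fitted with edgeR 4.0.16 on R 4.3.3 (quasi-likelihood F test, TMM scaling, filterByExpr), with the library as a block and Benjamini-Hochberg adjustment over 11147 genes. The fit had 7 residual degrees of freedom. Libraries pair the conditions by design, since the conditions of a library were mixed and sequenced together; deviations from condition means correlated within a library with a median r of 0.588 (0.281 to 0.677, 28 pairs of conditions, 4706 genes). SE is the log2 fold change divided by the root of F. Per-library differences had 2 as prior count, which shrinks the folds of genes with few UMIs. Cells were thinned to 6500 UMIs for shares and for phase calls with scanpy 1.11.5, and intervals are exact (Clopper-Pearson, 95%). Positions are GENCODE v29 on GRCh38. Of 690 list genes 638 matched by symbol, 2 by an older symbol and 50 did not match.

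The genes named are the 12 largest rises and 12 largest falls with at least 20 CPM and 1 sign, up to 4 called members of each list each way with at least 10 CPM, every member of 4 lists (ERK output, feedback, EGFR ligands and 11p15.5), and the 4 largest differences each way in time and against the PI3K inhibitor. The comparison, the 39 lists and the tests were chosen with earlier results of these data known, and any other gene or difference was named after its values were seen. On simulated data with 10909 genes, planted log2 changes of 0.5, 1 and 2 at 20 h were recovered in 16.4%, 66.2% and 87.7% of cases, and 5 of 10712 unchanged genes were called. Every simulated gene had 1 common spread, set near that of the fit, and no other condition was changed. These rates hold for that setting, which is simpler than the real data. Each condition had 2 libraries. The spread behind SE and p was estimated over all 16 sums and drawn toward that of other genes (prior degrees of freedom 43.3). SE and adjusted p thus rest only in part on the spread of the 2 libraries compared. Some list members are counted but not reported here by name.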

Additional observations from a re-analysis of the deposited data

Results flagged for a closer look

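The genes below were picked out because the change with the MEK inhibitor differed between 30 h and 20 h in a test of that difference (edgeR, adjusted over all genes); differences are on the log2 scale, 30 h minus 20 h. The difference was negative for ACOX2 (-2.92), PLEK2 (-2.0), MCM10 (-1.95), CCNE2 (-1.91) and NT5E (-1.82). It was positive for LOX (2.91), ATP2B4 (2.90), KRT15 (2.71), IGFL2-AS1 (2.67), CRYAB (2.65), KRT16 (2.30), HSPB1 (1.97), CD24 (1.88), ID1 (1.41) and CDKN1C (1.15). In ID1 the sign of the change turned: it was -1.16 at 20 h and 0.24 at 30 h. LOX lies over SRFBP1 on the other strand and CCNE2 over INTS8 and NDUFAF6, and reads of these pairs cannot be told apart.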

How the results depend on the processing

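The counts of genes called depend most on the term that pairs the conditions of a library. With no replicate block 92 genes were called higher and 250 lower at 20 h, 36 differed between the times and 999 between the inhibitors, and every one of them was also called with the block. DESeq2 called 312 higher (296 of them also by edgeR), 484 lower (all 484) and 377 between the times. Without the deepest cells, those with most UMIs, 299 genes were higher and 385 lower, 282 differed between the times and 1473 between the inhibitors. In cells called S 298 were higher, 341 lower and 811 differed between the inhibitors; the difference between the times was not run there, as too few inhibited cells were called S at 30 h. These 2 settings hold fewer cells. Under median-ratio factors, library totals, no filter on low counts, only the conditions compared and the fit without 0 h and 15 h all counts stayed within 1.5 times. Of 168 called genes chosen for naming at 20 h, 65 kept the call under every alternative in which they had a value. A gene without a value under a setting was not counted as lost there. The call was lost by 93 without the block, 34 with DESeq2, 45 in S cells and 41 without the deepest cells. Leaving out 1 library leaves no test; SPRR2D then was -1.36 without replicate 1, turned to 0.01 without replicate 2 and was 0.04 in S cells, and no other of the 168 changed sign. In 1 library alone the fold of 20 of them lay over 1.5 times from the joint one. The added prior count of 2 shrinks such folds at few UMIs, and its part in these moves was not tested. For SPRY1 both libraries (log2 -1.91 and -2.02) gave a smaller fold than the joint fit (-3.57). Among all called genes AC245014.3, AZGP1, MFAP5 and SPRR2A also had opposite signs in the libraries. Values not called at 20 h that changed sign were TSSC4 (0.04), CCNE2 (0.03), CDK1 (-0.08) and KRT15 (1.05) without the deepest cells. In S cells they were CCNE2 (0.10), KRT15 (1.19), RRM2 (0.05) and CDKN1B (-0.04) and, against the PI3K inhibitor, CCND1 (0.33) and F3 (-0.08). RRM2 is itself among the genes used to call S cells. CDKN1B was also -0.04 with library totals and with only the conditions compared, and -0.02 with no replicate block. Apart from the smaller cell sets, the cause of these shifts was not tested. Genes under about 5 CPM rest on few UMIs.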
